A study of Mus musculus with 6 samples.

Results

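A set of 10 genes named as regulators of translation at synapses was examined by RNA sequencing of mouse hippocampus. They are Fmr1 with its relatives Fxr1 and Fxr2, the FMRP partners Cyfip1 and Cyfip2, the cytoplasmic polyadenylation element binding proteins Cpeb1, Cpeb2, Cpeb3 and Cpeb4, and Pum2. The genes were named with earlier results of these data known, though no measured value enters the rule. For each, the transcript with the highest mean over the libraries was kept, and all 10 of 10 were found among 25785 gene names and passed the expression filter that left 15717 genes for testing. Total RNA came from whole hippocampus of C57B1/6J mice (the strain as the labels spell it) at postnatal day 30. There were 3 libraries with the genotype wild type and 3 with the genotype PTCHD1 mutant. Ptchd1 is an X-linked gene for a patched-domain membrane protein, known from human genetics for its link to intellectual disability and autism. The labels give no sex, litter, lane or altered exon, nor whether each library is a separate animal, and p-values therefore reflect only how far these libraries spread.

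FMRP, the product of Fmr1, binds messenger RNAs in neurons and represses their translation, and its loss causes fragile X syndrome. CYFIP1 joins FMRP to the cap-binding protein eIF4E, and both CYFIP proteins are also subunits of the WAVE complex that drives actin assembly in dendritic spines. CPEB proteins bind U-rich elements near the end of messenger RNAs and set poly(A) tail length and translation, and PUM2 is a repressor that binds a separate element in the same region.

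Of the 10 genes, Cyfip2 and Cpeb3 stood above wild type in every mutant library, with ratios of group means of 1.19 and 1.18. Fxr1 and Cyfip1 stood below wild type in every mutant library by a smaller margin. The groups overlapped for the other six. No member passed the adjusted threshold in limma.

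Exon and promoter sequences that bear on these genes are shown first. Several members have transcripts that differ by a short coding exon. The signal of these exons could be read approximately from the deposited rows. The 24-base exons of Cpeb3 and Cpeb4 are related sequences, identical at 18 of 24 bases, short enough to be called microexons. The Cpeb4 one is included mainly in neurons and has been reported as less included in brains of people with autism. Positions are those of GRCm38, a later build than the mm9 the authors used, and come from matching GENCODE models. Capitals mark the alternative exon and lower case the 15 bases of transcript on either side. The Cpeb4 exon lies on chr11:31918801-31918824 (plus strand), the Cpeb3 exon on chr19:37105791-37105814 (minus strand), and the Fmr1 exon, of 75 bases, on chrX:68712231-68712305 (plus strand). All are coding. The longer Cpeb4 exon, of 51 bases, is on chr11:31908825-31908875 (plus strand) and directly precedes the 24-base exon in the transcript.
Cpeb4 24-base exon: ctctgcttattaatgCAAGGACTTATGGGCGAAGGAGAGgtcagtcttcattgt
Cpeb3 24-base exon: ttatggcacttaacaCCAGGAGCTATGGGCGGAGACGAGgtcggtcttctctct
Cpeb4 51-base exon: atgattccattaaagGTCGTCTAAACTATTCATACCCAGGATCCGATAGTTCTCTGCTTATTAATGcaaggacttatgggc
Fmr1 75-base exon: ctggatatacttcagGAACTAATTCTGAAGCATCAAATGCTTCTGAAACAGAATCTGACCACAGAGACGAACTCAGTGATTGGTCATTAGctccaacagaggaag

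The promoter of Cyfip2, the member with the largest difference, is shown as the RefSeq window of 300 bases around the transcript start (GRCm38.p6, chr11:46312309-46312608, minus strand). Capitals mark the single match to the GC box GGGCGG, the letters bound by SP1 family factors.
Cyfip2 promoter: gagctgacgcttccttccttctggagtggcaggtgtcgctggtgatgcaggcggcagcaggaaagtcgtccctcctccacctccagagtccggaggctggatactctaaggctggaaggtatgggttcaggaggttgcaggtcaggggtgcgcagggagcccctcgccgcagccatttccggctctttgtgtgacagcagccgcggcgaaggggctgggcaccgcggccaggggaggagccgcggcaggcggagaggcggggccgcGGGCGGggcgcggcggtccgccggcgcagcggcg
RefSeq promoter windows of 300 bases were matched for 8 of the 10 genes, 13 windows in all, and 6 motifs were searched on both strands. The GC box was present for 8 of 8 matched genes. It was in 11 of their 13 windows and in 35.7% of the 32851 windows of all genes. The NRF1 motif was in 5 of the 13, of Fmr1, Fxr2 and Pum2, and in 4.60% of all windows. The EGR letters GCGNGGGCG were in 2, of Fxr1 and Cpeb1, and in 5.55% of all windows. The E-box CACGTG was in 3, of Fmr1 and Cpeb1, and in 7.15% of all windows. TATAAA was in 1, of Cpeb1, against 13.6% of all windows. TGACGTCA, the CRE, was in 0 against 1.79%. Every window of a gene other than Cpeb3 held at least 65.7% GC, against a median of 52.7% over all windows. Those of Cpeb3 held 47.0%, 46.0% and 77.7%. Motif shares were not adjusted for this. The GC box and EGR letters can overlap. These matches describe letters only.

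Values below are normalized read equivalents, obtained by dividing the authors' normalized signal by 42 bases, the read length its steps imply. Unnormalized read equivalents summed over 1 transcript per gene ran from 12450000 to 23750000 per library (rounded), and the members held between 951 and 22335 each in a library. Ptchd1, the gene named in the genotype, was 323, 389 and 411 in wild type and 181, 150 and 130 in the mutants, so every mutant library was below every wild-type library. The log2 change of -1.28 ± 0.14 (SE) had adjusted p = 0.0342 in limma. Over 18 alternative settings the Ptchd1 log2 change lay between -1.41 and -1.17, and its adjusted p was at or above 0.05 in 7 of them, reaching 0.0644 with the GC and length correction and 0.371 without wild-type replicate 3. Neuronal, glial and vascular markers were all detected, with none at 0 in every library. The sum of 5 neuron markers was 86542 to 87094 in wild type and 95496 to 103002 in the mutants. Camk2a, 1 of the 5, had means of 20493 and 25037. Sums of 5 interneuron markers were also higher, at 10674 to 11405 and 11591 to 12263. Sums of 6 hippocampal neuron markers overlapped, at 8593 to 8829 and 8119 to 9268, with a median log2 change of 0.03. Astrocyte marker sums were lower, at 27252 to 28157 in wild type and 25714 to 26835 in the mutants. Oligodendrocyte marker sums overlapped, at 67336 to 78508 and 57157 to 72118, with 2 of 7 markers lower in every mutant and a median log2 change of -0.18. Choroid plexus markers summed to 752 to 54170 in wild type and 1117 to 2754 in the mutants. In wild-type replicate 2, deviations from the gene means followed transcript GC content (Spearman rho across genes -0.48), and in mutant replicate 1 they did so in the opposite sense (0.43). Wild-type replicate 3 had a rho of -0.18, while values for the other three libraries ran from -0.01 to 0.08. In such tissue libraries, more cells of a type and more RNA per cell cannot be told apart.

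Per base of transcript, Cyfip2 was by far the most abundant member, with a mean normalized coverage of 114 over the 6 libraries. Cpeb4 followed at 43.5 and Pum2 at 37.3. Fxr1 was at 28.1, Cyfip1 at 24.6, Fxr2 at 24.6, Fmr1 at 19.2 and Cpeb1 at 16.8. Cpeb3 at 9.30 and Cpeb2 at 8.53 were the scarcest. Lengths are those of the longest matched GENCODE model, so the order is approximate. The ranges over the 6 libraries overlapped between Cpeb4 and Pum2, between Cyfip1 and Fxr2, between Fmr1 and Cpeb1, and between Cpeb3 and Cpeb2. The other neighbours in this order had separate ranges.

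**Figure D1:**
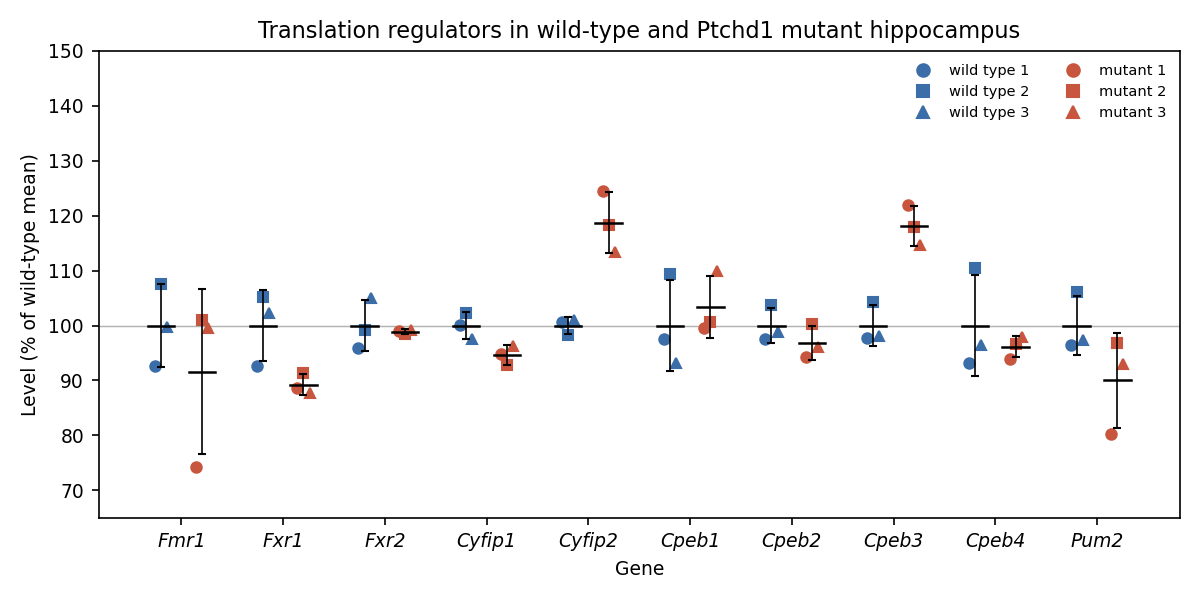
Level of each regulator in each library as a percent of its wild-type mean (vertical axis), by gene (horizontal axis). Symbols are libraries, horizontal bars are group means and error bars are ± SD (n = 3 each). All 3 mutant symbols lie above the wild-type symbols for Cyfip2 and Cpeb3 and below them for Fxr1 and Cyfip1.

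In the Fmr1 family, none of the 3 genes had a log2 change above 0. Fmr1 was 1949, 2263 and 2098 in wild type and 1561, 2126 and 2094 in the mutants. Mutant replicate 1 alone was low and the other two mutants lay inside the wild-type range. The log2 change was -0.14 (95% interval -0.39 to 0.11, adjusted p = 0.534), and it was 0.01 without mutant replicate 1. Among the transcript models used for GC content, that of Fmr1 is the most AT-rich of the members, with 39.2% GC. Its log2 change was -0.02 once GC content and length were corrected for.

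Fxr1, an autosomal relative that binds RNA and is best known in muscle, was 1975, 2241 and 2179 in wild type. It was 1890, 1948 and 1868 in the mutants. Each mutant was below each wild-type library, with a log2 change of -0.16 ± 0.07 (SE; 95% interval -0.31 to -0.01; unadjusted p = 0.0360, adjusted p = 0.235). The corrected log2 change was -0.08 (unadjusted p = 0.191). Fxr2, the other relative, was 1662, 1719 and 1823 in wild type and 1717, 1708 and 1722 in mutant libraries. The latter lay inside the wild-type range, with a log2 change of -0.02 (adjusted p = 0.922). At 58.5% GC, the model of Fxr2 is the most GC-rich of the members, and its corrected log2 change was -0.13 (unadjusted p = 0.0848).

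In the CYFIP pair the members stood on opposite sides of wild type. Cyfip2 was 16710, 16311 and 16766 in wild type and 20668, 19622 and 18815 in the mutants. Every mutant lay above every wild-type library, and the ratio of means was 1.19. Its log2 change was 0.25 ± 0.06 (SE; 95% interval 0.11 to 0.38), with an unadjusted p of 0.0023 and an adjusted p of 0.120 in limma. Cyfip1 was 3886, 3974 and 3788 in wild type and 3679, 3604 and 3740 in mutant libraries. Groups were again separate, this time with the mutants below, with a log2 change of -0.08 ± 0.06 (SE; 95% interval -0.21 to 0.05; adjusted p = 0.474). Corrected for GC content and length it was -0.11 (unadjusted p = 0.0440). With 3 libraries against 3, an exact permutation test of either gene gives 0.1, the smallest p it allows.

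Like Cyfip2, the sum of 5 neuron markers given above was higher in all 3 mutants than in any wild-type library. Expressed as a percent of that sum, Cyfip2 was 19.1 ± 0.32 in wild type and 20.04 ± 1.40 in mutant libraries (SD, n = 3 each), and the groups overlapped (exact permutation p = 0.4). Corrected for GC content and length, the log2 change of Cyfip2 was 0.12 (unadjusted p = 0.0307, adjusted p = 0.265). Sums of 6 hippocampal neuron markers overlapped between groups (median log2 change 0.03), and Cyfip2 was not expressed relative to them. The value relative to neuron markers thus depends on the markers chosen. The part of cell composition and of GC content in the difference was not tested further.

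Among the CPEB genes, Cpeb3 was the one with separated groups. It was 1170, 1250 and 1174 in wild type and 1460, 1412 and 1374 in the mutants, a ratio of 1.18. Its log2 change was 0.24 ± 0.07 (SE; 95% interval 0.09 to 0.39; unadjusted p = 0.0040, adjusted p = 0.129), and it was 0.19 after the correction (adjusted p = 0.20). As a percent of the neuron marker sum it was 1.38 in wild type and 1.44 in the mutants, with overlapping groups (exact permutation p = 0.3). Mouse CPEB3 is known as a repressor of glutamate receptor messenger RNAs that turns into an activator with use.

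Cpeb1, the founding member that acts on poly(A) tails, was 1195, 1339 and 1141 in wild type and 1219, 1233 and 1346 in mutant libraries. These groups overlapped, with a log2 change of 0.05 (adjusted p = 0.773). Cpeb2 was 1420, 1509 and 1437 in wild type and 1372, 1459 and 1397 in the mutants. Its log2 change was -0.05 (adjusted p = 0.735), again with overlap. Cpeb4, the most abundant of the 4 per base, was 6196, 7349 and 6412 in wild type and 6252, 6433 and 6509 in the mutants. Wild-type replicate 2 stood above all other libraries, and the log2 change was -0.05 (adjusted p = 0.727).

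Pum2 was 5688, 6251 and 5738 in wild type and 4733, 5703 and 5480 in the mutants. Mutant replicate 2 lay within the wild-type range and the other two below it. Its log2 change was -0.15 ± 0.08 (SE; 95% interval -0.33 to 0.02; adjusted p = 0.312). It was -0.12 with the GC and length correction, -0.075 without mutant replicate 1 and -0.031 without both wild-type replicate 2 and mutant replicate 1.

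Counted together, 0 of the 10 members had a limma adjusted p under 0.05, against a background of 0.00636% of all tested genes (higher 0.0%, lower 0.00636%). At an unadjusted p under 0.05 there were 3 members, Cyfip2 and Cpeb3 higher and Fxr1 lower, against 18.7% of all genes (higher 9.01%, lower 9.7%). After the GC and length correction there were also 3, with Cyfip1 in place of Fxr1, against 15.9% of all genes. Groups did not overlap for 2 members with higher and 2 with lower mutants, against 12.3% and 12% of all genes, 24.3% in all. A log2 change above 0 was found for 3 members and for 46.8% of all genes. The median log2 change was -0.05 over the members and -0.02 over all genes. When the p-values of the authors' deposited table were adjusted over the same genes, 2 members passed 0.05, against 7.8% of all genes (higher 4.57%, lower 3.23%). Those were Cyfip2, with the authors' p of 1.2e-05 and an adjusted value of 0.0011, and Cpeb3, with the authors' p of 6.0e-04 and an adjusted value of 0.0144. With library quality weights, limma also called Cyfip2 (log2 change 0.23, adjusted p = 0.0411) and Cpeb3 (adjusted p = 0.0450). That setting called 462 genes higher, 2.94% of those tested.

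**Figure D2:**
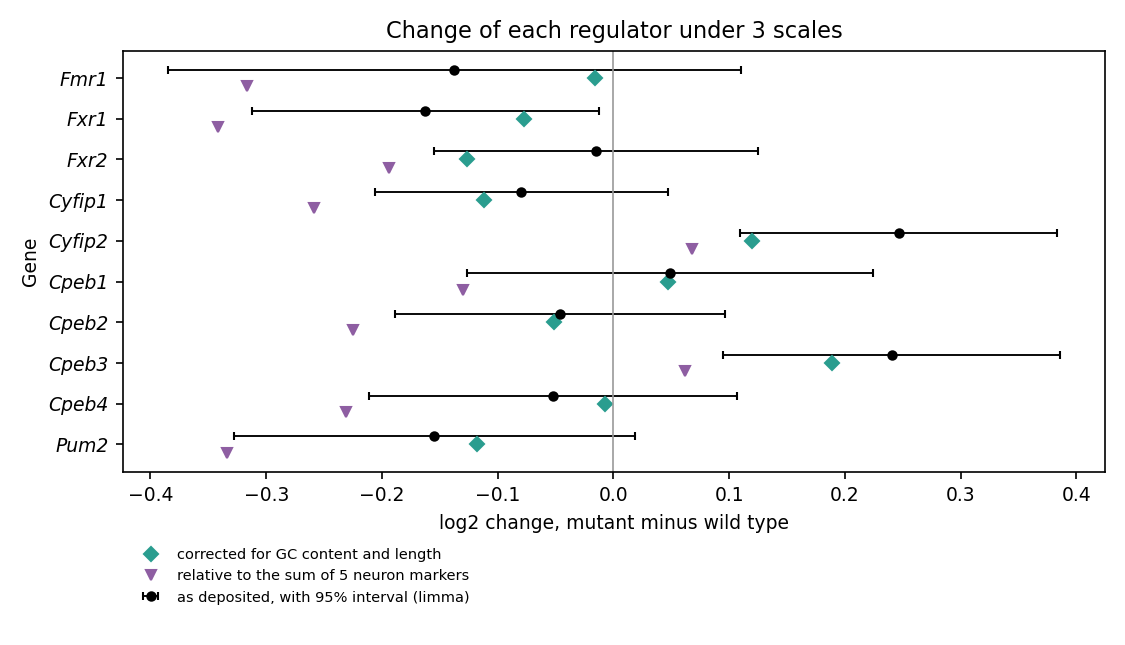
Log2 change of each regulator, mutant minus wild type (horizontal axis), by gene (vertical axis), on 3 scales. Black points with bars are the limma estimates with 95% intervals, green diamonds are values corrected for GC content and length, and purple triangles are relative to the sum of 5 neuron markers. Cyfip2 goes from 0.25 to 0.12 and 0.07, and Cpeb3 from 0.24 to 0.19 and 0.06.

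Dividing by the neuron marker sum moves every gene down by the same amount, since that sum was higher in the mutants. On that scale 7 members stood below wild type in every mutant library, namely Fmr1 (log2 difference -0.32), Fxr1 (-0.34), Fxr2 (-0.19), Cyfip1 (-0.26), Cpeb2 (-0.22), Cpeb4 (-0.23) and Pum2 (-0.33). Of all tested genes, 40.8% did so too. The exact permutation p is 0.1 for each, the smallest possible. Cpeb1 was at -0.13 with overlap. This scale was chosen after the data were seen, and no other marker sum was used as a scale.

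A ratio of paralogs inside a library does not depend on scaling between libraries. The log2 ratio of Cyfip2 to Cyfip1 was 2.10, 2.04 and 2.15 in wild type and 2.49, 2.44 and 2.33 in the mutants. The groups were separate and the means differed by 0.33 (2.10 ± 0.05 and 2.42 ± 0.08, SD, n = 3 each; exact permutation p = 0.1, 0.3 after Benjamini-Hochberg adjustment over 6 ratios). Every mutant was above wild type for Cyfip2 and below it for Cyfip1. The separation of this ratio was therefore fixed by the single genes and adds no evidence to them. The log2 ratio of Cpeb3 to Cpeb4 was -2.40, -2.55 and -2.45 in wild type and -2.10, -2.19 and -2.24 in the mutants. Those groups were separate too, with a difference of 0.29 (exact permutation p = 0.1, adjusted 0.3). The other four ratios overlapped. Fxr1 to Fmr1 differed by -0.02, with mutant replicate 1 at 0.28 and the other two mutants at -0.13 and -0.16 against a lowest wild-type value of -0.01. Fxr2 to Fmr1 differed by 0.12, Cpeb1 to Cpeb4 by 0.10 and Cpeb2 to Cpeb4 by 0.01, with exact permutation p-values from 0.2 to 0.9. With 3 libraries in each group this exact test cannot give a p under 0.05. With the GC and length correction the Cyfip2 to Cyfip1 difference was 0.23 and the Cpeb3 to Cpeb4 difference 0.20.

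**Figure D3:**
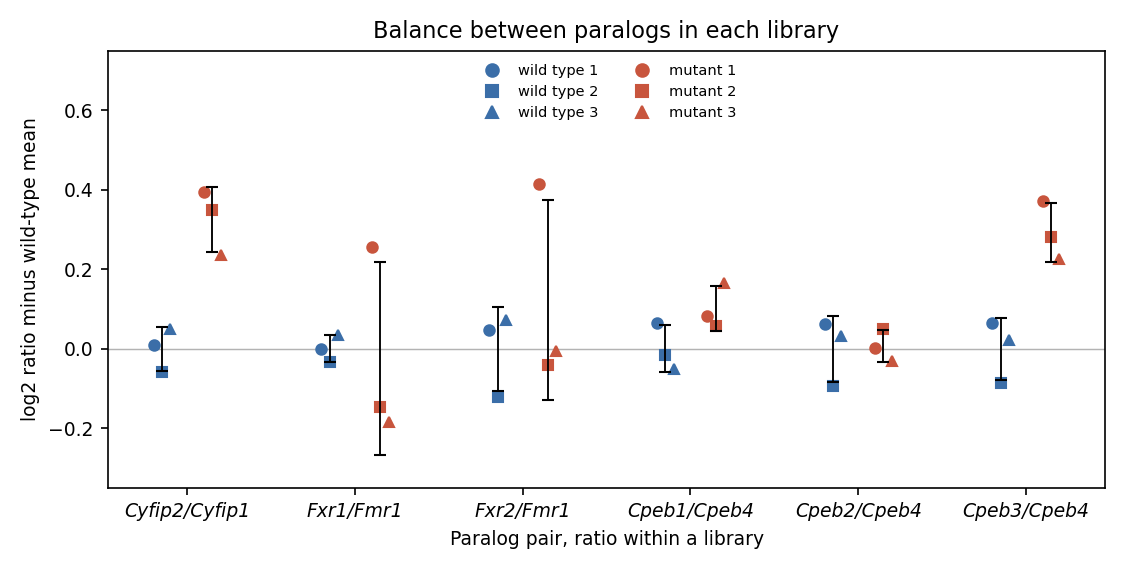
Log2 ratio of 2 paralogs within each library, minus the wild-type mean of that ratio (vertical axis), for 6 pairs (horizontal axis). Symbols are libraries and bars are mean ± SD (n = 3 each). The 3 mutants lie above the wild-type libraries for Cyfip2/Cyfip1 and Cpeb3/Cpeb4, and mutant 1 stands alone for both ratios to Fmr1.

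The transcript rows of a member share most of their signal, so their near-equal log2 changes are not separate evidence. Members had 1 to 6 rows, the lowest row held 95.8% of the kept one's mean (Fxr1), and log2 changes of rows of 1 gene differed by at most 0.01. Differences between such rows were read as the signal of the exon by which they differ. This reading is approximate, since it depends on the pair of rows. The same 93 bases of Cpeb3 held 1.71% or 0.730% of the signal in wild-type replicate 1, depending on the pair. Signal from outside an exon may therefore enter its share. Over 20 row pairs, 7 distinct coding exons of at least 20 bases could be read this way, a comparison added after the data were seen. The share of Cpeb4 signal on the 24-base exon printed above was 0.162%, 0.197% and 0.171% in wild type and 0.111%, 0.128% and 0.128% in the mutants. Every mutant was below every wild-type library, with means of 0.177% ± 0.018 and 0.122% ± 0.0095 (SD, n = 3 each), a ratio of 0.693. The exact permutation p is 0.1, the smallest possible, and 0.7 after adjustment over the 7 exons.

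That Cpeb4 exon had an unnormalized coverage of 10.3 to 33.4 reads per base, so each share rests on few reads. Coverage spread evenly over the longest model would put 0.381% of the signal there. An exon of this size is covered only by reads that span splice junctions, and the sources used here do not say how such reads were aligned. The related 24-base exon of Cpeb3 held 0.315% in wild type and 0.316% in the mutants (exact permutation p = 1.0). The 51-base exon of Cpeb4 held 0.470% and 0.398%, with overlapping groups (exact permutation p = 0.3). For Fmr1, the 75-base exon held 0.823% and 0.913% (exact permutation p = 0.4). A 237-base exon of Pum2 (chr12:8733273-8733509 in GRCm38) held 1.05% and 1.65%, with mutant replicate 1 at 2.48% (exact permutation p = 0.2). The remaining exons, 69 bases of Cpeb3 and 92 bases of Fxr1, also overlapped between groups.

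**Figure D4:**
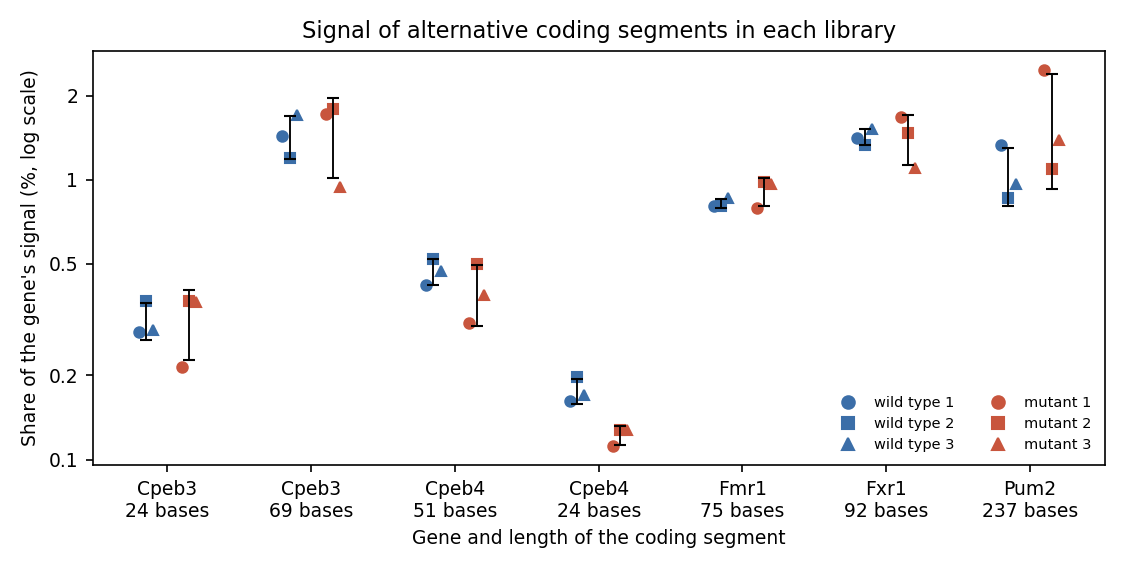
Share of a gene's signal on an alternative coding exon, taken as the difference between transcript rows. Values are in percent on a log scale (vertical axis), for 7 exons named by gene and length (horizontal axis). Symbols are libraries and bars are mean ± SD (n = 3 each). The 24-base exon of Cpeb4 is the one whose groups do not overlap, at 0.162% to 0.197% in wild type and 0.111% to 0.128% in the mutants.

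Genes that work with these regulators were taken from 5 lists, and 0 of their genes passed the adjusted threshold in limma. Among 19 partners of FMRP in RNA granules and transport, 5 had higher and 1 lower mutants without overlap (12.3% and 12% of all genes), and the median log2 change was -0.04. That median was 0.01 with the GC and length correction. Ago2, the slicing Argonaute of RNA interference, was 1285 ± 51.6 in wild type and 1618 ± 157 in mutants (SD, n = 3 each; adjusted p = 0.120). Pura, a single-stranded nucleic acid binding protein of transport granules, was 744 ± 76.5 and 926 ± 52.2 (adjusted p = 0.131). Stau1, a double-stranded RNA binding transport factor, was 872 ± 64.3 and 1061 ± 53.3. Samd4b, a Smaug repressor, had a log2 change of 0.35. Corrected for GC content and length, Ago2 was at 0.21, Samd4b at 0.20, Pura at 0.33 and Stau1 at 0.31.

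In the list of 9 WAVE complex and Rac genes the median was 0.03 and 1 gene lay apart in each direction, a share close to the 24.3% of all genes. The median turned to -0.089 without mutant replicate 2 and was 0.081 without mutant replicate 1. The WAVE subunit Wasf3 was 819 ± 10.7 in wild type and 965 ± 31.6 in mutant libraries. The small subunit Brk1 was 1806 ± 77.8 and 1603 ± 77.0. Abi1, another subunit, had a log2 change of -0.20 and Wasf2 one of 0.32, each with overlapping groups. Corrected for GC content and length, Wasf3 was at 0.16, Brk1 at -0.10, Abi1 at -0.06 and Wasf2 at 0.17.

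Among 19 genes of cap binding and cytoplasmic polyadenylation the median was 0.08, with 5 higher and 1 lower without overlap (12.3% and 12% of all genes). The scaffold Sympk was 1399 ± 29.8 in wild type and 1648 ± 93.6 in the mutants. Eif4e2, a cap-binding relative of eIF4E, had a log2 change of 0.21. Paip1, which binds the poly(A) binding protein, was 2250 ± 104 and 1926 ± 241. Ddx6, a helicase of repressed messenger RNA, had a log2 change of 0.14. Corrected log2 changes were 0.08 for Sympk, 0.21 for Eif4e2, -0.06 for Paip1 (uncorrected -0.23) and 0.15 for Ddx6.

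Transcripts reported as FMRP targets had the highest median of the 5 lists, 0.25 over 24 genes, against -0.02 over all genes. Of these 24, 14 had mutants above wild type without overlap and 0 had mutants below, and 20 had a log2 change above 0. Over all genes these shares were 12.3%, 12% and 46.8%. This list, like the others, was chosen with earlier results of these data known. Bsn, which encodes the presynaptic scaffold bassoon, was 4211, 3535 and 3841 in wild type and 6451, 5801 and 4899 in mutant libraries. Groups were separate, with a log2 change of 0.56 ± 0.10 (SE; adjusted p = 0.109). Shank1, a postsynaptic scaffold, was 1608, 1283 and 1313 in wild type and 2083, 2063 and 1815 in the mutants. Dlg4, which encodes PSD-95, was 6047 ± 241 and 7687 ± 525 (SD, n = 3 each). Dlgap4, a PSD-95 partner, had a log2 change of 0.46. Dlg4 and Camk2a stand on the CPEB target list as well.

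The target list is GC-rich, with a median of 55.1% GC against 50.2% over all tested genes, and its median was 0.11 after correction for GC content and length. After that correction 18 of the 24 were above 0, with Bsn at 0.29, Shank1 at 0.24, Dlg4 at 0.22 and Dlgap4 at 0.28. Using the p-values of the authors' deposited table adjusted over all tested genes, 11 of the 24 passed 0.05 with higher mutants and 0 with lower. Over all tested genes these shares were 4.57% and 3.23%. One of the 24, Camk2a, is also a neuron marker, and that marker sum was higher in the mutants. Without mutant replicate 1 the median was 0.17.

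The 7 transcripts reported as CPEB targets gave a median of 0.00. Camk2a, the kinase whose messenger RNA CPEB1 was first studied on in neurons, was 22509, 19671 and 19300 in wild type and 23075, 26890 and 25145 in the mutants, a log2 change of 0.29 (adjusted p = 0.131). Gria2, a glutamate receptor subunit under CPEB3, was 30360, 36443 and 32206 in wild type and 26041, 28850 and 30015 in mutant libraries. Groups were separate, with the mutants below, with a log2 change of -0.22 (adjusted p = 0.205). Map2, a dendritic microtubule protein, had a log2 change of 0.05 and overlap. Corrected for GC content and length, Camk2a was at 0.17 and Gria2 at -0.13.

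**Figure D5:**
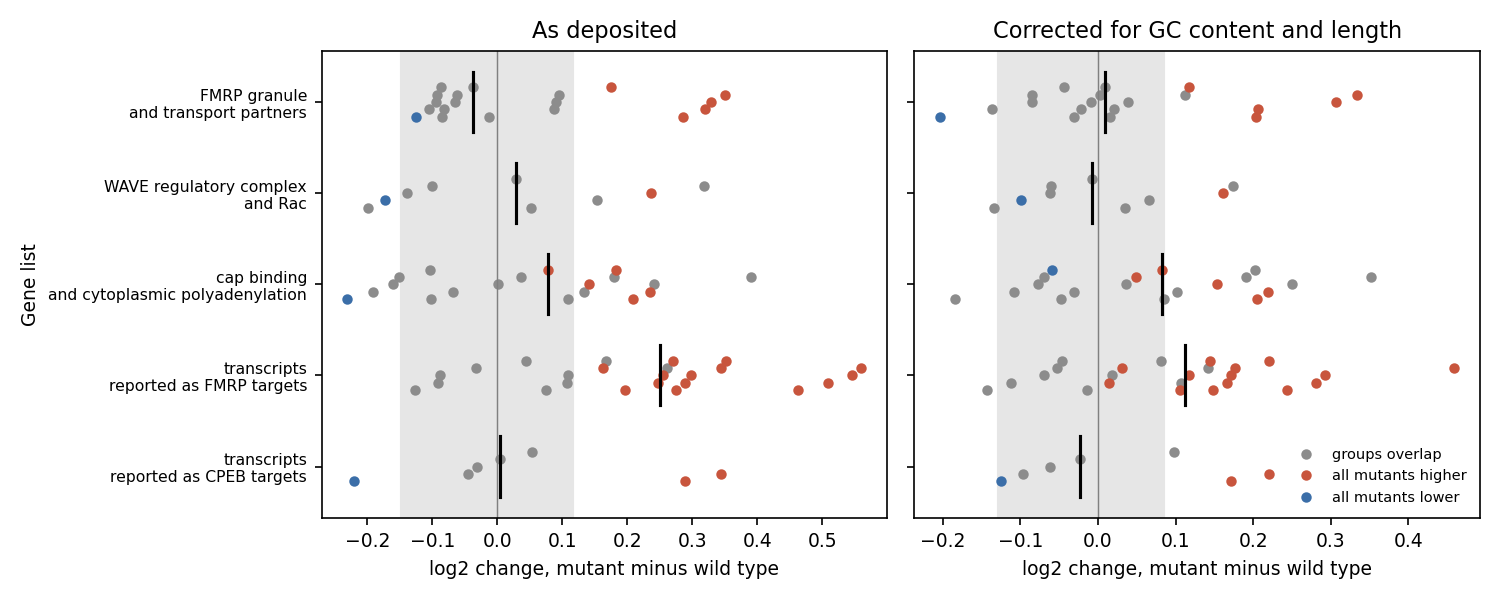
Log2 change, mutant minus wild type (horizontal axes), of the genes of 5 lists (vertical axis), as deposited on the left and corrected for GC content and length on the right. Points are genes, coloured by whether the deposited values of the groups overlap, black lines are list medians, and the grey band runs from the lower to the upper quartile of all tested genes. The median of the FMRP target list goes from 0.25 to 0.11.

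In the authors' deposited ontology tables, 2 of the 10 members, Cyfip2 and Cpeb3, were listed among genes higher in the mutants and 0 among genes lower. The share of all genes listed there was not counted. These counts therefore have no background and are not a result about the members. The authors' p, adjusted over the tested genes, was under 0.05 with higher mutants for 4.57% of them and with lower mutants for 3.23%. Whether that rule matches the one behind the authors' lists was not checked. Cyfip2 stood in 124 of the 7551 terms of the higher table and Cpeb3 in 227, and 43 terms held both. The authors' deposited table gave the term synapse 142 genes, a fold enrichment of 4.91 and a corrected p of 5.8e-54, with both members in it. Such values are for the authors' whole higher list and do not measure the members. Its term dendrite, with Cpeb3, had a fold enrichment of 5.35. For regulation of translation, with Cpeb3, the authors' deposited table gave 28 genes, a fold of 2.57 and a corrected p of 0.115. The fold was 0.71 for translation and 2.32 for negative regulation of translation, both with Cpeb3. Neither member was in the term actin cytoskeleton organization, with a fold of 2.83 and the authors' corrected p of 5.4e-06. Cyfip2 was also listed in the authors' deposited table under CA1 and CA2 pyramidal cells, with 59 genes and a fold of 3.22. Only that cell type was looked up, and only for Cyfip2, and the fold is for the authors' whole higher list.

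Over the 6 libraries, some members varied together, given here as a description. Pearson's r of log2 values was 0.94 for Fmr1 and Pum2 and 0.94 for Cyfip2 and Cpeb3, while it was -0.88 for Cyfip1 and Cyfip2. The 5 tested genes most like Fmr1 were Rb1cc1 (r = 0.998), Ireb2, A930015D03Rik, Ipo7 and Swt1 (r = 0.994). These points share libraries, depth and the GC trend, and each of the 5 was lowest in mutant replicate 1, as Fmr1 was.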

How the data were processed

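The authors deposited, for 35477 transcript rows, a normalized signal in each of the 6 libraries, with a p-value and a signed score for every row. Per the submitters' processing notes, GSNAP, DESeq2 and mm9 were used, with settings not given in the sources used here. Per the labels' protocols, ribosomal RNA was removed and libraries were stranded and sequenced single-end. In each library every deposited signal value was a whole multiple of a step of 0.759 to 1.42 (tolerance 0.01 of a step), and multiples of 42 were the most common. Values were therefore read as normalized coverage by 42-base reads and divided by 42, a reading that no source states. Depth per library is given with the results. The deposited enrichment tables give a fold enrichment (ratio), gene counts and a corrected p-value by the authors.

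The design assumed counts or normalized values. Since coverage is not a count, limma 3.58.1 in R 4.3.3 (mean-variance trend, two-sided) was used on log2(value + 1) over 15717 genes with a mean of at least 10, with Benjamini-Hochberg adjustment at 0.05. Log2 changes on this scale understate the change of low genes. Exact permutation tests used the 6 libraries, and the smallest p they allow is 0.1. GRCm38 transcripts of GENCODE M21 gave GC content and length for 98.2% of tested genes. A spline with 5 degrees of freedom on each was subtracted from each library. The model matched to the kept row could be much shorter than the gene's longest one. It had 2312 against 6303 bases for Cpeb4, 3560 against 6311 for Pum2 and 1777 against 3111 for Cpeb1. Corrected values of such genes are approximate. Replicate numbers follow accession order. All per-sample columns were used. The named genes were the 10 members, Ptchd1, up to 4 genes of each list with the smallest limma p, and the 5 genes most like Fmr1. The members and lists were chosen with earlier results of these data known. Protein sequences and the authors' transcript models were not used here. Alternatives in pseudocount, filter, normalization, model, GC correction, transcript row and left-out libraries are given in the closing section.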

Additional observations from a re-analysis of the deposited data

How the results depend on the processing

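Of 461 alternative values, 404 were classed as the same, by rules that differ in strictness. Members had to keep direction and side of the threshold, and paralog ratios and values relative to neuron markers direction alone. List medians and exon shares had to move by less than the spread between libraries. Counts of called genes had to stay at 0 or near the main count. Entries with the authors' p reuse the main log2 change, and those with other transcript rows reuse most of the main signal. In limma 0 members were called in every setting except library quality weights, which called 2. Among pathway genes 0 were called, 11 with quality weights, 1 without wild-type replicate 2 and mutant replicate 1 (the 2 libraries with the strongest GC trends), and 0 to 1 when each library was left out. Among all genes, 0 were called higher and 1 lower. Quality weights gave 462 and 343, leaving out both GC trend libraries 18 and 92, and leaving out each library 0 to 21 and 0 to 36. The lower count was 0 with no filter, with quantile normalization, with no mean-variance trend and with the GC correction. Over 18 limma settings Cyfip2 ranged from 0.12 to 0.28 (adjusted p 0.0411 to 0.371) and Cpeb3 from 0.19 to 0.27 (adjusted p 0.0450 to 0.375).

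Signs turned for the following values of members, ratios and lists. Without both GC trend libraries Fmr1 was 0.061 and Cpeb4 0.038, and relative to neuron markers Cpeb1 was -0.13. The Fxr2/Fmr1 difference was -0.11 with the GC correction and -0.083 without both GC trend libraries, and Cpeb2/Cpeb4 was -0.044 and -0.038. When each library was left out, Fmr1 ranged from -0.22 to 0.0072, Fxr2 from -0.045 to 0.021, Cpeb1 from -0.00030 to 0.11 and Cpeb4 from -0.10 to 0.021. In the same way Fxr1/Fmr1 ranged from -0.17 to 0.055, Fxr2/Fmr1 from -0.023 to 0.20 and Cpeb2/Cpeb4 from -0.041 to 0.038. Cyfip2/Cyfip1 kept its sign, from 0.29 to 0.37, and was 0.23 with the GC correction and 0.26 without both GC trend libraries. Cpeb3/Cpeb4 kept its sign, from 0.25 to 0.33, and was 0.20 and 0.21. The FMRP granule median was 0.0089 with the GC correction and 0.041 without both GC trend libraries. The WAVE median was -0.0077 with the correction and ranged from -0.089 to 0.081 when each library was left out. The CPEB target median was -0.023 with the correction and -0.016 without wild-type replicate 3. The share on the Cpeb4 24-base exon stayed lower in the mutants without each library, and the difference was -0.039 percentage points without both GC trend libraries. The cause of these shifts was not tested.

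The median of the FMRP target list was 0.16 without both GC trend libraries and 0.20 without wild-type replicate 2. No paired analysis was possible because the replicate numbers follow accession order and pair no samples. With 3 libraries in each group, no exact test of a single value can pass 0.05.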

Other observations

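In the authors' deposited motif table for genes higher in the mutants, Cyfip2 was listed under 7 of 481 motifs and Cpeb3 under 17. The authors' fold enrichments of these motifs ran from 0.995 for SOX5, which held both genes, to 3.24 for ERR2, which held Cpeb3. In the authors' deposited table of 78 binding region sets, Cyfip2 was in 13 and Cpeb3 in 30. Other genes were not counted in the same way, so these counts have no background. Both tables are listings of gene names, and no site or factor was measured in these libraries.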
